A study of Mus musculus with 4 samples.

Results

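The genes described here lie side by side on mouse chromosome 8, from Il27ra at one end of the run to Abcc12 at the other. They were selected on their difference in log2 signal between GO2 and ID8G cells, where neighbor after neighbor was higher in GO2 cells, so the choice used the same arrays and the same comparison as the values given below. Those values are therefore a description of the members, with no test. Of 47 genes listed, 46 had a probe that could be named through its RefSeq accession, out of 22911 genes with a named probe on the array. The exception, Stx10, a SNARE protein of the trans-Golgi network, has no value here.

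ID8G cells are ID8 mouse ovarian cancer cells that carry a retroviral GFP vector and were sorted for GFP. ID8 itself is a line of ovarian surface epithelial cells of the mouse that became transformed in culture, and the host strain, C57BL/6 J, is syngeneic. GO2 cells descend from ID8G cells through repeated rounds of intraperitoneal injection into female C57BL/6 J mice, each followed by sorting of CD45-negative, GFP-positive cells from the omentum, the fatty apron of the abdomen where these tumors settle. Both lines share the GFP vector, and the culture medium given for ID8 cells is DMEM with serum, insulin, transferrin and selenite. GO2 is a single selected line, and the labels do not say whether its 2 arrays, or the 2 arrays of ID8G, came from separate cultures, so the spread between arrays may be technical. Each array was hybridized with Cy3-labeled cRNA in 1 color.

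Neighboring genes of mammals mostly have promoters of their own and make products with unrelated functions, and the members are no exception. The run holds immediate early genes such as Junb and Ier2, the blood cell transcription factors Klf1 and Lyl1, the germ cell gene Nanos3, the chaperone gene Calr, and subunits of several well-known complexes. The run also joins blocks that are apart in human, where the genes from Il27ra to Man2b1 and those from Vps35 to Abcc12 lie on different chromosomes.

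Levels are given as the log2 signal of a probe minus the 75th percentile of its array, so that 0 is the 75th percentile. A difference is the mean of the GO2 arrays minus the mean of the ID8G arrays on that scale, and the range printed with it runs over the 4 pairings of a GO2 with an ID8G array. A gene with several probes is represented by its brightest probe. A probe counts as measured where the scanner software called it well above background. The 75th percentile stood at a signal of 675 and 668 for ID8G cells and of 635 and 630 for GO2 cells, and between 27507 and 28876 of 56605 probes per array were well above background. The lowest level with that mark was between -3.85 and -3.53. Replicate arrays correlated at 0.997 and arrays of different lines at 0.967 to 0.968 over probes that were well above background (Pearson's r, across probes of whole arrays). No spot was saturated.

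Promoters of 37 members were found in the RefSeq table for GRCm38.p6, each running from 250 bases before to 50 bases after the start of the gene. Shown are Nfix, which of the members with an entry and signal on all 4 arrays lay farthest above the median of the run, Dnase2a, which lay farthest below it, and Junb, itself a DNA-binding regulator. Capitals mark matches on either strand to TATAAA, the element bound by the general initiation factors, to CCAAT, the element of nuclear factor Y, to GGGCGG, the box bound by the Sp family, and to TGANTCA, the site of AP-1 dimers.
Nfix, chr8:84780033-84780332, minus strand: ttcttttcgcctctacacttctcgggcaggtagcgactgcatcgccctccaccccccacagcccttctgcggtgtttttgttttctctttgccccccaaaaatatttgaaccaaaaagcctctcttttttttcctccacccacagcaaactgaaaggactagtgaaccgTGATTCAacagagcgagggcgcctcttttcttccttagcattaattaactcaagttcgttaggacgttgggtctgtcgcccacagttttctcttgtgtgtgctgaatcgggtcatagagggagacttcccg
Dnase2a, chr8:84908505-84908804, plus strand: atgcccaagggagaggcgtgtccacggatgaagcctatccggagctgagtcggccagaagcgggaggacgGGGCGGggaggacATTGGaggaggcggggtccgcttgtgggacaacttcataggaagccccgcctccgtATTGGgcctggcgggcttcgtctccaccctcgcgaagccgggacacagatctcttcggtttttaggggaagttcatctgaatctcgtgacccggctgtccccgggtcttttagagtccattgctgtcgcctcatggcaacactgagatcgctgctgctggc
Junb, chr8:84978699-84978998, minus strand: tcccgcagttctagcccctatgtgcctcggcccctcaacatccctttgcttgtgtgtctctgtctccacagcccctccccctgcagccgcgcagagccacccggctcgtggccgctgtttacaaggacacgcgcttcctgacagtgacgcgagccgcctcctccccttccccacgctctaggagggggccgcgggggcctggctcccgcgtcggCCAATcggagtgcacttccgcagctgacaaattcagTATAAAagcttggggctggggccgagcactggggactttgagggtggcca
The Nfix promoter held 1 AP-1 match and was 49.3% G and C. The Dnase2a promoter held 1 Sp box and 2 CCAAT elements at 61.7% G and C, and that of Junb 1 TATAAA and 1 CCAAT element at 65.3%. Of the 37 promoters, 24 (64.9%) held an Sp box, against 35.9% of 27025 promoters in the table, and 20 (54.1%) held a CCAAT element, against 37.9%. TATAAA was found in 5 (13.5%, against 14.2%) and an AP-1 site in 2 (5.41%, against 7.93%). Median content of G and C was 58.3% in the members and 52.7% in all promoters, and the median ratio of observed to expected CpG was 0.76 and 0.39. These matches describe letters in a window and were not tested. The 27025 promoters were not limited to genes with signal on these arrays.

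Most members were higher in GO2 cells, by amounts that varied around a common shift. The median difference over the 46 members was 0.92, or 1.89-fold, with quartiles of 0.56 and 1.23, where the median over 22892 genes was -0.05 with quartiles of -0.19 and 0.17. A difference above 0 was found for 41 of 46 members (89.1%, background 39.7% of all genes). In 21 members the difference was at least 2-fold (45.7%, background 6.11% of all genes; 20 with dim genes at their bound), and in 39 both GO2 arrays lay above both ID8G arrays (background 26% of all genes). The GO2 arrays lay below the ID8G arrays in 2 members, Dnase2a and Abcc12, and overlapped with them in 5, which were Nanos3, Klf1, Rtbdn, Best2 and Mylk3. Set against the ID8G mean of each member, the median over the members was 0.03 and -0.03 for the ID8G arrays, and 0.95 and 0.90 for those of GO2. The 4 pairings gave member medians between 0.87 and 0.96, and the 2 arrays of a line differed by medians of -0.06 (ID8G) and -0.01 (GO2). Scaling to the spike-in transcripts shifts every gene alike, here by -0.20, so that the median of the members less that of all genes is 0.96 by either scaling.

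**Figure D1:**
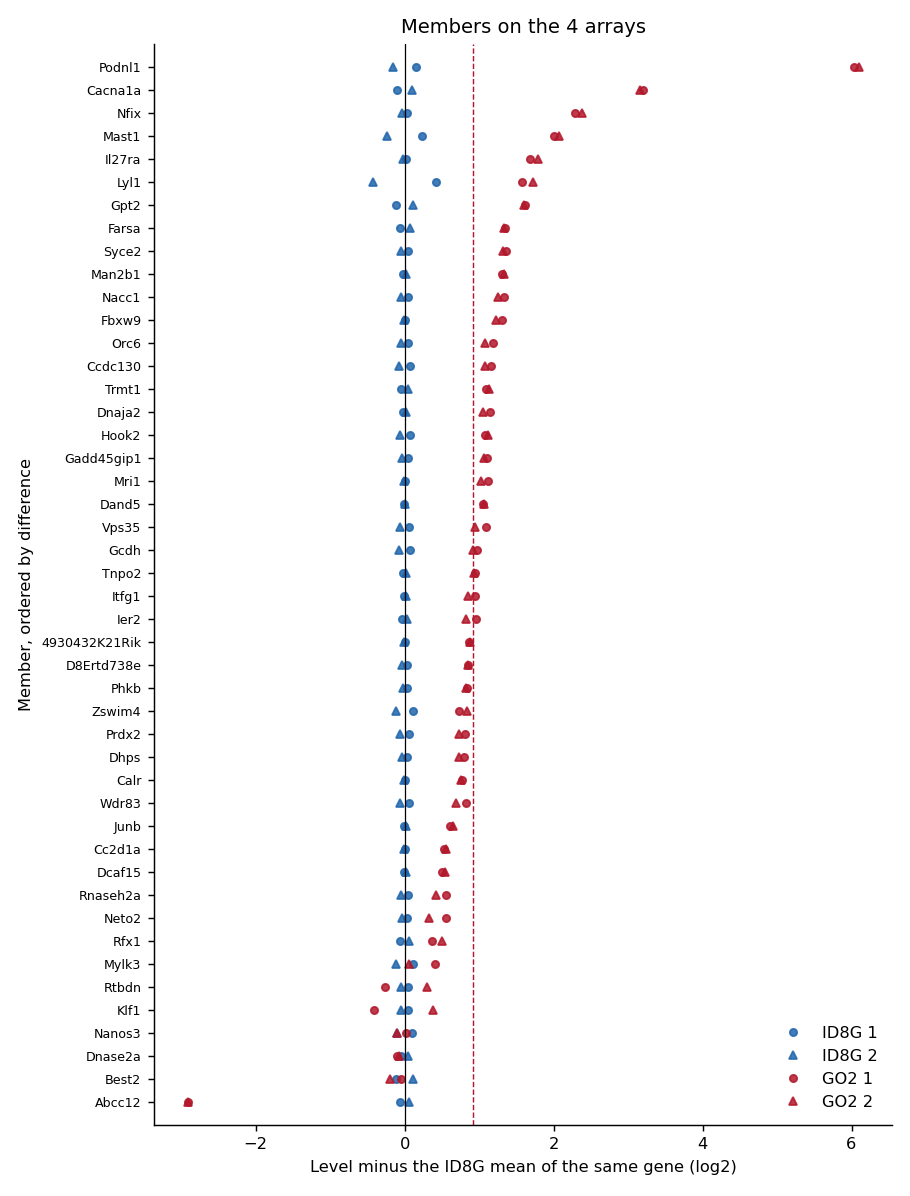
Level of each of the 46 members on the 4 arrays minus the mean of its ID8G arrays (log2, x axis), ordered by the difference between the lines. Blue points are ID8G and red points GO2, circles are replicate 1 and triangles replicate 2, and the dashed line is the member median of 0.92. The GO2 points of 39 members lie to the right of both ID8G points, and those of Abcc12 and Dnase2a to the left.

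Position along the run was next compared with the difference. The RefSeq table lists 97 genes from Il27ra to Abcc12, of which 59 had a named probe, and 13 of these are not members. Those 13 had a median difference of 0.95, and 9 of them had both GO2 arrays above both ID8G arrays (background 26% of all genes). They lie between edges that were set on this same comparison, so their values are a description too. Among them, Get3, which delivers tail-anchored proteins to the endoplasmic reticulum, differed by 1.15, and Wdr83os by 1.16. The exceptions in between were 1700122E12Rik at -0.02, Zfp791 at 0.25, Gm5741 at 0.24, and Rln3, Olfr371 and A230103J11Rik, whose probes were not well above background on any array. A second, dimmer Zfp791 probe had signal in GO2 cells only and was at least 2.48-fold higher there.

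The genes next to the run were read in the same way. Immediately before the run lay Palm3, at -0.05, and Misp3, at -0.42, and immediately after it Lonp2, the peroxisomal Lon protease, at -0.31, Siah1a, a ubiquitin ligase, at 0.06, and then N4bp1 at -0.45. A little before the run, Samd1 and Prkaca, the catalytic subunit of protein kinase A, were at 0.37 and 0.60, in the range of members such as Rfx1 and Dcaf15. The last member itself, Abcc12, was lower in GO2 cells, so that Phkb was the last member with a higher level. The 10 genes with a named probe before the run had a median difference of 0.04 and the 10 after it of -0.03, but of these only 8 and 4 had signal on all 4 arrays. The 12 with signal had a median of 0.0063, and the 4 after the run were Lonp2, Siah1a, N4bp1 and Cnep1r1, the last at -0.46. The remaining 1040 genes of chromosome 8 with a probe had a median of -0.10 (quartiles -0.34 and 0.04). Because the edges were set on this comparison, any step there is part of how the run was chosen. Within the run, the 9 members before Mri1 had a median of 0.78 and the 36 from Mri1 to Phkb one of 1.04, a division made after the values were seen. The 37 measured members from Il27ra to Man2b1 and the 9 from Vps35 to Abcc12, apart in human, had medians of 0.94 and 0.90.

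**Figure D2:**
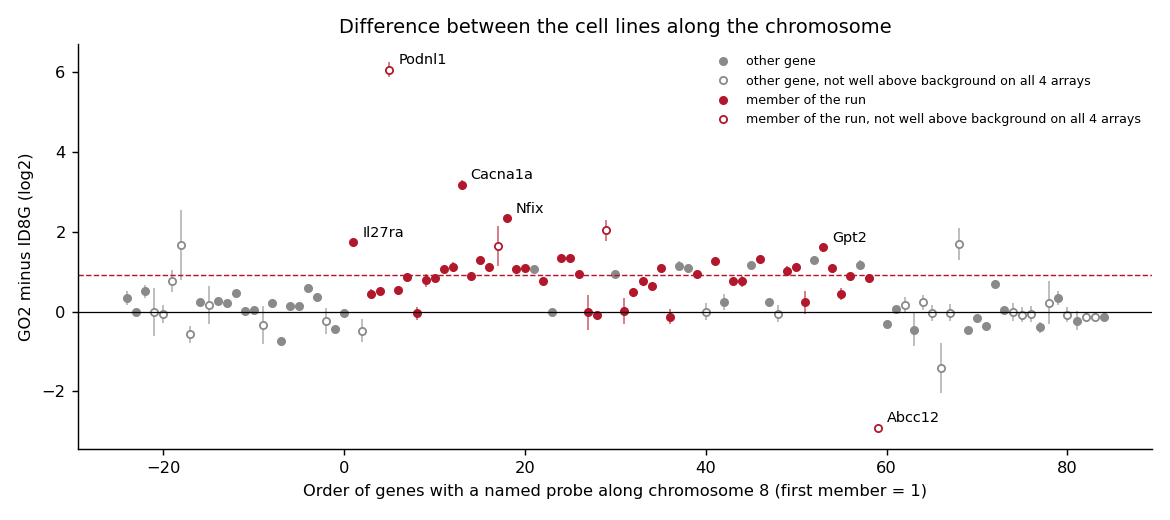
Difference between GO2 and ID8G cells (log2, y axis) for genes with a named probe in their order along chromosome 8 (x axis, gene rank with Il27ra as 1). Red points are members and gray points other genes, open points were not well above background on all 4 arrays, vertical lines span the 4 array pairings, and the dashed line is the member median of 0.92. Of the 46 members, 21 lie within 0.25 of that line, and the 12 flanking genes with signal on all 4 arrays have a median of 0.0063.

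Cell surface, secreted and matrix proteins had a median of 0.90 over 9 members and, where signal was well above background on all 4 arrays, lay between -0.12 (Best2) and 3.18 (Cacna1a). Il27ra, which opens the run, encodes the receptor chain specific to interleukin 27. Its levels were -2.34 and -2.39 in ID8G cells and -0.68 and -0.57 in GO2 cells, a difference of 1.74 (range 1.65 to 1.82) or 3.34-fold. Cacna1a, the pore-forming subunit of P/Q-type voltage-gated calcium channels, was at -1.46 and -1.25 in ID8G cells and at 1.85 and 1.81 in GO2 cells. This difference of 3.18 (range 3.06 to 3.31), or 9.07-fold, was the largest among members with signal on all 4 arrays. A second Cacna1a probe differed by 2.94, and the remaining probe was not well above background on any array. Both genes lay well above the common shift, with no overlap between the lines.

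Podnl1 encodes podocan-like protein 1, a small leucine-rich proteoglycan of the extracellular matrix. Its probe was at -5.70 and -6.00 in ID8G cells, not well above background, and at 0.18 and 0.25 in GO2 cells, well above it. On the processed signal, with ID8G cells set to the lowest level that carried the mark, Podnl1 was at least 14.9-fold higher in GO2 cells. Abcc12, a transporter of the ABC family and the last member, ran the other way. Its levels were -2.22 and -2.09 in ID8G cells, and -5.07 on both GO2 arrays, where it was not well above background, so that it was at least 3.19-fold lower in GO2 cells. Its other 2 probes were not well above background on any array.

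Other members of this class were closer to the common shift or below it. Dand5, a secreted antagonist of Nodal, differed by 1.06, and Itfg1, a transmembrane protein, by 0.90, with levels of 3.52 and 3.54 in ID8G cells and 4.47 and 4.38 in GO2 cells. Neto2, an auxiliary subunit of kainate receptors, differed by 0.44. Best2, a chloride channel, was at -3.42 and -3.19 in ID8G cells and at -3.36 and -3.50 in GO2 cells, and Rtbdn, a riboflavin-binding protein of the retina, at -3.36 and -3.46 and at -3.66 and -3.11. Both genes overlapped between the lines and lay near the lowest levels that were well above background.

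Regulators of transcription and RNA had a median difference of 0.76 over 10 members, of which 4 were at least 2-fold higher (background 6.11% of all genes). These were Nfix, Nacc1, Gadd45gip1 and Lyl1, the last at 1.65 but only at least 1.25-fold higher by its bound. Nfix, a nuclear factor I protein whose promoter is printed above, was at 1.67 and 1.60 in ID8G cells and at 3.93 and 4.02 in GO2 cells. Its difference of 2.34 (range 2.25 to 2.42), or 5.05-fold, was matched by its other probes at 2.19 and 2.37. Nacc1, a BTB domain repressor known for high expression in human serous ovarian carcinoma, differed by 1.30. Gadd45gip1, a protein of the mitochondrial ribosome, differed by 1.09.

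The immediate early genes stayed at or below the common shift. Ier2 was at 0.76 and 0.83 in ID8G cells and at 1.75 and 1.62 in GO2 cells, a difference of 0.89 that was among the 4 closest to the member median. Junb, an AP-1 subunit, was at 3.68 and 3.70 in ID8G cells and at 4.30 and 4.35 in GO2 cells. The difference of Junb was 0.63 (range 0.60 to 0.67), or 1.55-fold, and 0.42 on its second probe. Rfx1, a winged-helix factor, and Cc2d1a, a repressor also found at endosomes, differed by 0.44 and 0.54.

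Factors restricted to other lineages were dim or unshifted. Klf1, the erythroid Kruppel-like factor, was at -2.87 and -2.96 in ID8G cells and at -3.33 and -2.54 in GO2 cells, which overlapped. Its second probe was well above background on the GO2 replicate 1 array only. Lyl1, a helix-loop-helix factor of blood cells, was at -4.58 and -5.44 in ID8G cells, not well above background, and at -3.43 and -3.29 in GO2 cells, and so at least 1.25-fold higher. Nanos3, an RNA-binding protein of germ cells, was at 0.25 and 0.05 in ID8G cells and at 0.17 and 0.05 in GO2 cells, a difference of -0.04. This brightest Nanos3 probe was well above background on all 4 arrays, but the second Nanos3 probe was not on any array.

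Enzymes of nucleic acids, with proteins of replication and chromosomes, had a median of 1.11 over 8 members, and 5 were at least 2-fold higher (background 6.11% of all genes). Farsa, the catalytic subunit of cytosolic phenylalanyl-tRNA synthetase, was at 3.59 and 3.73 in ID8G cells and at 5.01 and 5.00 in GO2 cells (difference 1.34, range 1.27 to 1.41). Syce2, known from the central element of the synaptonemal complex in meiosis, was at 2.78 and 2.69 in ID8G cells and at 4.09 and 4.05 in GO2 cells, also a difference of 1.34. Orc6, the smallest subunit of the origin recognition complex, was at 5.06 and 4.97 in ID8G cells and at 6.20 and 6.09 in GO2 cells (difference 1.13, range 1.03 to 1.23). Trmt1, a tRNA methyltransferase, differed by 1.11.

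Rnaseh2a, the catalytic subunit of ribonuclease H2, was lower than these, with levels of 3.69 and 3.60 in ID8G cells and 4.20 and 4.06 in GO2 cells. Its difference was 0.48 (range 0.37 to 0.60) and was also 0.48 on its second probe. Dnase2a, the acid DNase of lysosomes, was at 5.83 and 5.93 in ID8G cells and at 5.78 and 5.80 in GO2 cells, a difference of -0.09 (range -0.16 to -0.03). Its second probe, at -3.27 and -3.53 in ID8G cells and at -2.04 and -2.20 in GO2 cells, differed by 1.28. For Dnase2a the probes thus gave opposite directions, both with signal on all 4 arrays.

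Genes of protein folding, transport and turnover were among the most even. Over 8 measured members the median difference was 1.06, with a lowest of 0.52 (Dcaf15, a substrate receptor of a ubiquitin ligase) and a highest of 1.32 (Man2b1, the lysosomal alpha-mannosidase). Calr, the calcium-binding chaperone of the endoplasmic reticulum, was at 4.90 and 4.88 in ID8G cells and at 5.66 and 5.65 in GO2 cells (difference 0.76, range 0.74 to 0.78). Vps35, the core subunit of retromer, was at 0.50 and 0.38 in ID8G cells and at 1.53 and 1.39 in GO2 cells (difference 1.02, range 0.89 to 1.15). Tnpo2, a nuclear import receptor, was at 0.71 and 0.75 in ID8G cells and at 1.67 and 1.66 in GO2 cells, a difference of 0.94 that nearly equaled the member median. Dnaja2, a co-chaperone of Hsp70, and Hook2, which links cargo to microtubules, were each higher by 2.14-fold.

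Metabolic genes had a median of 0.89 over 6 members, none lower than 0.76. Gpt2, the mitochondrial alanine aminotransferase, was at 1.14 and 1.36 in ID8G cells and at 2.86 on both GO2 arrays, a difference of 1.61 (range 1.50 to 1.72) or 3.05-fold, with 1.25 on its second probe. Gcdh, which acts in the breakdown of lysine and tryptophan, was at 1.07 and 0.91 in ID8G cells and at 1.97 and 1.91 in GO2 cells, a difference of 0.95. Prdx2, a peroxiredoxin, was at 6.68 and 6.56 in ID8G cells and at 7.42 and 7.34 in GO2 cells (difference 0.77, range 0.67 to 0.87). Mri1, of the methionine salvage pathway, differed by 1.08, Phkb, the beta subunit of phosphorylase kinase, by 0.84, and Dhps, which makes hypusine on Eif5a, by 0.76. Of the protein kinase genes Mylk3 and Mast1, Mylk3, a myosin light chain kinase of heart, was at -2.41 and -2.64 in ID8G cells and at -2.12 and -2.47 in GO2 cells, which overlapped. Mast1 differed by 2.04, but in ID8G cells its signal was well above background on the replicate 1 array only.

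In all, 21 members lay within 0.25 of the member median, 12 lay further above it and 13 further below it. Restricted to the 42 members with signal on all 4 arrays, the median was 0.90 and 18 were at least 2-fold higher (42.9%). Over all 12304 genes with such signal, the median was -0.0095 and 3.65% were at least 2-fold higher. Where a member had several probes with signal on all 4 arrays, their differences were set side by side, and why they differed was not tested. This was the case for 15 members, and in 11 the probes lay within 0.25 of each other. The 4 that did not were Tnpo2, Gpt2, Neto2 and Dnase2a, with Neto2 at 0.44, 0.69 and 0.89 and Tnpo2 at 0.94 and 1.20.

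**Figure D3:**
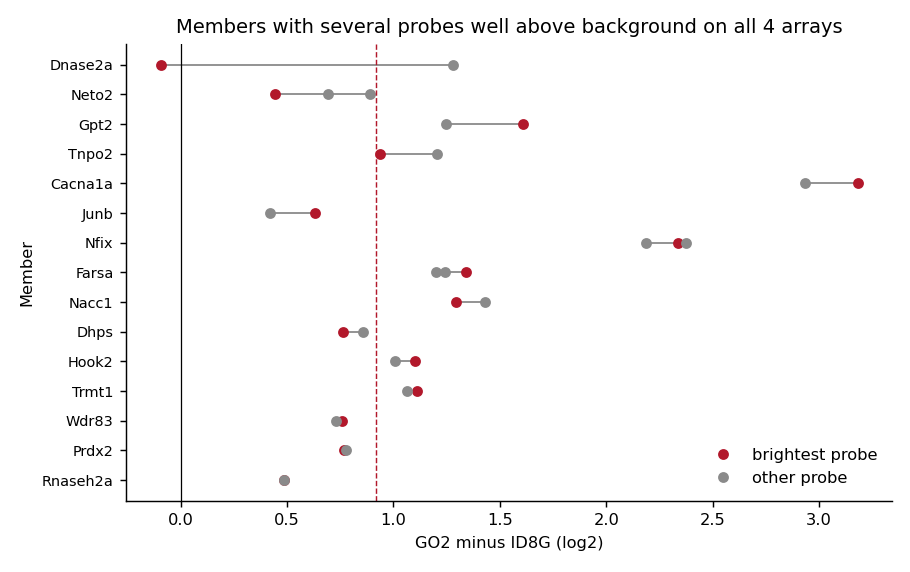
Difference between GO2 and ID8G cells (log2, x axis) for the 15 members that have several probes well above background on all 4 arrays (y axis). Only probes with such signal are drawn. Red points are the brightest probe of a gene, gray points its other probes, and the dashed line is the member median of 0.92. In 11 members the probes drawn lie within 0.25 of each other, and those of Dnase2a lie on opposite sides of 0.

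Genes outside the run that work with the members, or are their paralogs, were then examined, since they played no part in choosing the run. A list of 163 such genes was drawn up for 42 members, with earlier results of these data known. Of these, 161 had a probe and 138 could be tested with limma, in a fit across all 28370 probes with signal well over background for both arrays of ID8G cells, of GO2 cells or of both. Calls required a p below 0.05 after Benjamini-Hochberg adjustment and a difference of at least 2-fold. The tested partner genes had a median difference of -0.04 (quartiles -0.18 and 0.16), with 4 called higher (2.90%, background 5.96% of 13212 genes tested) and 6 called lower (4.35%, background 3.95%). Of the genes tested, 788 were called higher and 522 lower, and with spike-in scaling these were 675 and 710.

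Other subunits of the same complexes mostly lay near 0. For 10 members the list held other subunits of a complex, 32 genes in all, of which 28 were tested in 9 complexes and 0 were called in either direction (limma), although 11 had an adjusted p below 0.05 at smaller differences. The median difference of these 28 subunits was -0.0036, with a lowest of -0.40 and, among those with signal in both lines, a highest of 0.80. The 9 members had a median of 1.02, but they were selected for a higher level in GO2 cells and the other subunits were not, so the gap between them was not tested.

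Retromer carries receptors from endosomes to the trans-Golgi network, and beside Vps35 at 1.02 its other subunits Vps26a, Vps26b and Vps29 lay between -0.04 and 0.08 (limma adjusted p of 0.305 to 0.644). For the origin recognition complex, Orc1 to Orc5 lay between -0.07 and 0.17 (adjusted p of 0.0723 to 0.837) beside Orc6 at 1.13. Farsb, which pairs with Farsa at 1.34, differed by 0.07 (adjusted p = 0.386), and both partners of Rnaseh2a fell short of the threshold, at -0.13 and -0.17. In the calcium channel, the auxiliary subunits Cacna2d1, Cacnb1 and Cacnb3 lay between -0.28 and 0.02 beside Cacna1a at 3.18. Il6st, which completes the interleukin 27 receptor with Il27ra, was higher by 0.51 (adjusted p = 0.00655), under the 2-fold threshold. Jak1 and Stat3, which act after the receptor, lay at 0.61 (adjusted p = 0.00427) and 0.15 (adjusted p = 0.0954).

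Phosphorylase kinase and AP-1 were mixed. Beside Phkb at 0.84, the regulatory subunits Phka1 and Phka2 differed by 0.47 and -0.20, and the catalytic subunit Phkg2 by -0.17, while Phkg1, with signal in GO2 cells only, was at least 1.30-fold higher. Among dimer partners of Junb, Fosl1 differed by 0.80 (adjusted p = 0.00328), Fosl2 by 0.49, and Fosb by -0.03, while Batf3, with signal in GO2 cells only, was at least 1.52-fold higher (adjusted p = 0.0114). Fos, listed with Ier2, differed by 0.97 (adjusted p = 0.00209) and was not well above background on the ID8G replicate 1 array. The paralogs Jun and Jund were at -0.12 and -0.49. Jund also lies on chromosome 8, outside the run.

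**Figure D4:**
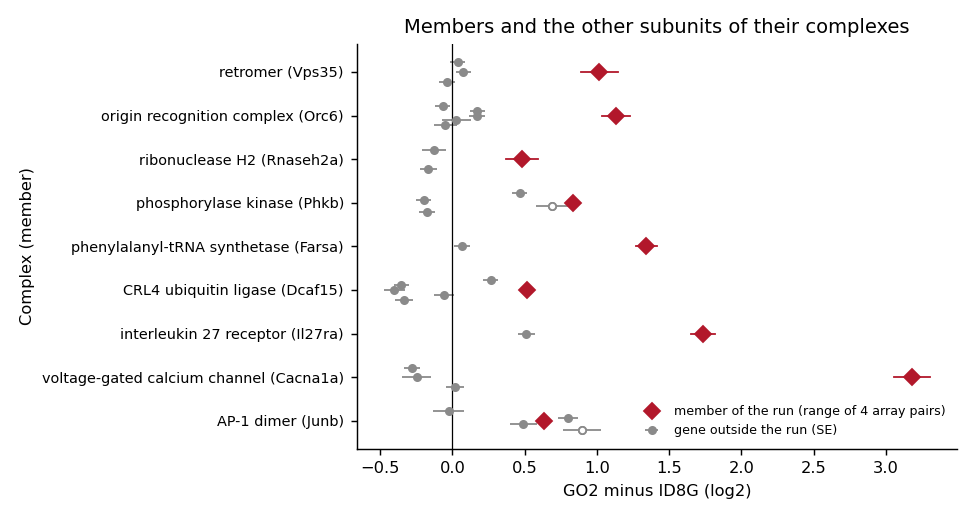
Difference between GO2 and ID8G cells (log2, x axis) for members of the run (red diamonds, line for the range of the 4 array pairings) and tested genes outside the run that belong to the same complex (gray points, open where ID8G cells were not well above background, bar for the limma standard error), by complex (y axis). The members, which were selected on this difference, have a median of 1.02 and the 28 other subunits one of -0.0036.

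The 10 partner genes that were called are paralogs of members or were listed with an immediate early gene. Higher in GO2 cells were Grem1 and Nbl1, secreted BMP antagonists of the same family as Dand5, at 2.23 and 2.14 with standard errors of 0.06 and 0.07 (limma adjusted p of 0.000246 and 0.000337). Egr1, an immediate early gene listed with Ier2, was higher by 1.56 ± 0.06 (SE), and Dnaja4, a paralog of Dnaja2, by 2.77 ± 0.08 (SE). Lower were Mylk and Mylk2, paralogs of Mylk3, at -1.91 and -2.11, and Klf2, a paralog of Klf1 elsewhere on chromosome 8, at -1.43 (adjusted p = 0.000851). Ier3 was at -1.93 and Neto1, a paralog of Neto2 with signal on the GO2 replicate 2 array but not on that of replicate 1, at -3.41. Calr3, a testis paralog of Calr, was at least 1.96-fold lower, with signal in ID8G cells only (adjusted p = 0.0175). The GO2 and ID8G arrays did not overlap for any of the 10, but the calls rest on the same arrays, so this adds no support.

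Markers of the labeled cell type and of other cells were read on the same arrays. Of 9 markers of ovarian surface epithelium and mesothelium, 8 had signal well above background in both lines and Krt7 on no array. Their summed signal, in units of the 75th percentile, was 663 to 670 in ID8G cells and 381 to 383 in GO2 cells, a sum made up mainly of the keratins Krt8, Krt18 and Krt19, of which Krt19 was called lower (-1.65, limma adjusted p = 0.000319). In the same list Upk3b was called higher (1.08, adjusted p = 0.000750), and Wt1, Lrrn4 and Gpm6a were at -0.10, -0.04 and 0.01. Msln, Krt18 and Krt8 were lower by less than 2-fold, at -0.83, -0.82 and -0.56 (limma adjusted p of 0.00157 to 0.00442). Of the leukocyte list, Ptprc, which encodes CD45, Adgre1, Lyz2 and Cx3cr1 were not above background on any array, while Itgam, Csf1r and Cd14 were on all 4, and the list summed to 21.9 to 24.7 in ID8G cells and 21.2 to 21.3 in GO2 cells.

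Klf1, Nanos3 and Syce2 are known from erythroid and germ cells. Of the erythroid list, Hbb-bt, Alas2, Gata1 and Slc4a1 were not above background, Hba-a1 and Ermap were on all 4 arrays, and Epor was on all but the ID8G replicate 1 array. The germ cell genes Dazl, Dppa3, Sycp3 and Nanos2 were not above background, Dnd1 was on all 4 arrays, and Ddx4 had signal in ID8G cells only and was at least 5.00-fold lower in GO2 cells (adjusted p = 0.000172). Among 7 fibroblast markers, Col1a1, Col1a2 and Pdgfra were called higher, by 4.69, 7.49 and 3.70, Dcn was at -0.63, and Lum, Thy1 and Fap were not above background on any array. The list summed to 67.4 to 70.1 in ID8G cells and 127 to 130 in GO2 cells, and its part in the differences of the members was not tested. In RNA of whole cultures, fewer cells with a transcript and less of it per cell cannot be told apart.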

How the data were processed

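RNA of ID8G and GO2 cells was measured on 4 Agilent SurePrint G3 arrays, 2 per cell line, on 1 slide. The authors deposited spot intensity on a linear scale, background-corrected by Feature Extraction 11.5.1.1 (per the file headers) without normalization across arrays. A second deposited table holds their log2 values, scaled to the 75th percentile and centered on the median of each probe. These were used as an alternative and differed from the values here, centered likewise, by at most 0.00120. Spots marked as outliers (132 to 195 per array) were left out and spots of a probe averaged. Of 56605 probes, 32994 (58.3%) were named through a RefSeq table for GRCm38.p6, whose coordinates are not given for probes because the array design is on mm9.

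The fit used limma 3.58.1 in R 4.3.3 on the probes with signal over background for both arrays of either line, with cell line as the only term and Benjamini-Hochberg adjustment over all probes tested. Figures were drawn with matplotlib 3.10.9. The procedure was tested on simulated data. Arrays of the same number did not deviate together (correlation 0.03) and were not paired. Alternatives were normexp with an offset of 50 on the median pixel, quantile normalization, median centering, spike-in scaling, outlier spots kept, deposited values, mean over all probes of a gene, dim genes at their bound, no filter or a filter on all 4 arrays, an intensity trend, the methods' t-test, the replicate block and each array left out. The number of arrays limits the precision.

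The members, the partner and marker lists and the rules were chosen with earlier results of these data known. Values on all 4 arrays are given for the members with signal on all 4 arrays that were 6 farthest above, 6 farthest below and 4 nearest to the member median, for the first and last members, for the members with the 3 largest bounds, and for Il27ra, Ier2, Junb, Nfix, Lyl1, Klf1, Calr, Prdx2, Rnaseh2a, Orc6 and Vps35. Partner genes are named where they were called or share a complex with a member, and other genes were named after their values were seen. For the promoters the rule named Cacna1a and Best2, which have no entry in the table, and the next members with one were taken. Some listed genes are not reported here.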

Additional observations from a re-analysis of the deposited data

How the results depend on the processing

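The member median of 0.92 was 0.86 with normexp, 0.71 with spike-in scaling and 0.98 with the mean over all probes of a gene. The interquartile range of the members, 0.67, was 0.61 with normexp, 0.43 with the mean over all probes, 0.60 with dim genes at their bound and 0.55 with genes well above background on all 4 arrays. With 1 array left out it ranged from 0.62 to 0.70, and the member median from 0.90 to 0.95. The median of the flanking genes, -0.0304, was 0.0365 with quantile normalization, -0.23 with spike-in scaling and 0.0583 with dim genes at their bound. It ranged from -0.0459 to 0.0307 with 1 array left out, and was above 0 without GO2 replicate 2 (0.0307) and without ID8G replicate 1 (0.0202). Of the 21 members at least 2-fold higher, the count fell to 12 with spike-in scaling, which lowers all genes alike. Dnase2a turned to 0.59 with the mean over all probes, in which its second probe takes part. Of 275 values for 25 members, 14 had the other sign, all in 5 members near 0 (Nanos3, Klf1, Dnase2a, Rtbdn and Best2), with Klf1 at 1.06 over the mean of its probes. With normexp, whose offset narrows differences at low signal, Podnl1 was at 3.35 and Abcc12 at -1.15, smaller than their bounds on the processed signal.

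The count of genes called higher, 788, was 449 when only genes well above background on all 4 arrays were kept, which tests fewer genes. With normexp, on the same probes as the main fit, 554 genes were called higher and 359 lower, against 788 and 522. The paper's methods give a t-test with Welch's correction for comparing 2 groups but name no test for the arrays. Run here on the arrays, that t-test called 0 genes higher, 0 lower, and 0 partner genes higher or lower after adjustment. At an unadjusted p below 0.05 it gave 645 genes higher and 421 lower. With the replicate block, limma called 776 genes higher and 518 lower, and 4 partner genes higher and 5 lower. Under the other settings, 4 or 5 partner genes were called higher and 4 to 6 lower. The slide as a block was not run because the arrays share 1 slide. Except where stated, the causes were not tested. With 2 arrays per line, members at the lowest levels, such as Klf1, Best2 and Rtbdn, are limited by signal over background.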
